A study of Macaca mulatta and Mus musculus and Rattus norvegicus with 12 samples.

Results

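The data described here are the read counts of 7 genes of the chemokine system in bone of the skull roof (calvaria) and of the shin (tibia). The genes are the chemokines CXCL12, CXCL14, CXCL16, CCL2 and CCL5, the CXCL12 receptor CXCR4 and the atypical CXCL12 receptor ACKR3. They were chosen by name with the calvaria and tibia counts of these same libraries already known, so their differences between the sites are given as a description, with standard errors and without p-values. A row was taken where its symbol, in upper case, was that of a member. By that rule 7 of 38599 symbols were found in mouse, 6 of 35259 in rat and 3 of 28641 in macaque. The remaining rows were found under other names. ACKR3 was listed as Cxcr7 in rat and as CXCR7 in macaque, and CCL2 was listed as MCP-1 in macaque. The macaque rows of CXCL14 and CXCL16 carried only a gene number, which was matched to its symbol in a RefSeq gene table. All 7 members therefore had a row and at least 1 read in each species.

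Chemokines are small secreted proteins that guide migrating cells by way of receptors that cross the cell membrane several times. CXCL12 made by stromal and bone lineage cells retains CXCR4-bearing haematopoietic cells in marrow, and ACKR3 binds the same ligand and removes it without signalling through G proteins. CXCL14 is a chemokine expressed constitutively in many epithelia and connective tissues, CXCL16 is a membrane-anchored ligand of CXCR6, and CCL2 and CCL5 recruit monocytes and T cells, respectively.

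The study compared osteocyte-enriched bone of female animals of 3 species, with 12 libraries of poly(A)+ RNA in all. Mouse (C57BL6, age 4 months) gave 2 libraries from calvaria, named M4 and M8, and 2 from tibia, named M5 and M7, with bone of 3 animals pooled in each, and rat (Wistar, age 6 months) gave 1 library per site (R1 and R3), each pooled from 2 animals. Rhesus macaque gave 3 libraries from calvaria, named G1, G3 and T1, and 3 from tibia, named G2, G4 and T2, none of them pooled. The methods of the study describe them as 3 skull and long bone pairs from individual macaques, so that the sites share animals. Their age of 4 to 6 was given in months by the labels and in years by the methods of the study. Marrow was spun out of the rodent tibias and rodent calvariae were cut to avoid marrow spaces, whereas macaque bone was sawn, and all pieces were scraped and treated with collagenase. Mouse and rat libraries were sequenced on a different lane from the macaque libraries, so species and lane cannot be told apart.

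Reads on named genes numbered between 13934813 and 16826535 per library in mouse, were 14255423 in R1 and 12233256 in R3 in rat, and were between 7951585 and 10342459 in macaque. The osteocyte label was checked against SOST, DMP1, MEPE, PHEX, FGF23 and PDPN, whose summed level lay between 1041 and 1847 normalized CPM (read counts scaled to a common library size) in mouse calvaria and between 7622 and 10369 in mouse tibia. The same sum was 553 in rat calvaria against 6555 in rat tibia, and it ranged from 4917 to 5779 in macaque calvaria against 7777 to 17530 in macaque tibia. FGF23 had no read in rat. Libraries of all species also held RNA of other cells. The neutrophil markers MPO, ELANE, S100A8, S100A9 and CSF3R summed to between 83939 and 108341 normalized CPM in mouse calvaria and to between 49336 and 56804 in mouse tibia. In these bulk samples, fewer cells of a type and less RNA per cell cannot be told apart.

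The structural difference between the CXC and CC groups is visible in the coding sequences of their members. Below, chosen to show CXCL12, CXCL14 and a CC ligand, the coding sequences of 1 mouse transcript each of Cxcl12, Cxcl14 and Ccl5 are written from start to stop codon in the sense direction, as given by GENCODE on GRCm38, with the codons of the first cysteine pair in capitals. In the CXC chemokines a single codon separates the pair, and in Ccl5 the pair is adjacent.
Cxcl12: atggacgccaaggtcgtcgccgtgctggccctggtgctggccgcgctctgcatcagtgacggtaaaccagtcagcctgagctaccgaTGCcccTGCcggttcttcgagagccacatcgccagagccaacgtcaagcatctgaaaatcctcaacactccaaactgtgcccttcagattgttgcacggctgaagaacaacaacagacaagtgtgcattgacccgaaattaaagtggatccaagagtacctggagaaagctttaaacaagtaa
Cxcl14: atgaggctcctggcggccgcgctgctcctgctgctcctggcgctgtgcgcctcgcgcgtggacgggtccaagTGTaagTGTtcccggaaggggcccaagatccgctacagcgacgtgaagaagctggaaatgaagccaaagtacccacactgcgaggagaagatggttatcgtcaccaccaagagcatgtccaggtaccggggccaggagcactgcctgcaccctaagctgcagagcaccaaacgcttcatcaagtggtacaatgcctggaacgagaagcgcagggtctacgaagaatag
Ccl5: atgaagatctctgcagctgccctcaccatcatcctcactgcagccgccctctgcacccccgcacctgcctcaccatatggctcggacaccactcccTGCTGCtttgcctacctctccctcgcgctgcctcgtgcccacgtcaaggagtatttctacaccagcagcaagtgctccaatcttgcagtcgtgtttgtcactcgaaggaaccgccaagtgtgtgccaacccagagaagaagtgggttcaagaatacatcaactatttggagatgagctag

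These sequences span chr6:117168656-117173582 on the plus strand for Cxcl12, chr13:56289792-56296173 on the minus strand for Cxcl14 and chr11:83525977-83530461 on the minus strand for Ccl5, introns included. The Cxcl12 gene as a whole lies on chromosome 6 from 117168535 to 117181367, Cxcl14 on chromosome 13 from 56288643 to 56296551, Cxcl16 on chromosome 11 from 70453983 to 70459984, Ccl2 on chromosome 11 from 82035571 to 82037453 and Ccl5 on chromosome 11 from 83525778 to 83530518. The receptor genes are both on chromosome 1, Ackr3 from 90203980 to 90216751 on the plus strand and Cxcr4 from 128588199 to 128592293 on the minus strand. All 7 are protein-coding genes, and reads were counted on their merged exons.

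The receptors are shown at a motif that sets the atypical receptor apart. In both, 72 bases of coding sequence surround the codons for aspartate, arginine and tyrosine at the inner end of the third membrane passage, in capitals. The bases that follow them differ between the receptors, and the canonical continuation of this motif in signalling chemokine receptors is the one that Cxcr4 carries.
Cxcr4: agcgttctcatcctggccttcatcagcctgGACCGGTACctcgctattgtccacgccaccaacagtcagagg
Ackr3: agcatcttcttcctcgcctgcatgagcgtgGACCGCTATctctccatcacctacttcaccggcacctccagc

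These stretches lie at chr1:128589479-128589550 on the minus strand for Cxcr4 and chr1:90214211-90214282 on the plus strand for Ackr3, in exons of both genes.

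ACKR3 transcripts were more abundant in the tibia than in the calvaria in all 3 species, and in no species did a calvaria library reach a tibia library. In mouse, normalized CPM of ACKR3 were 178 and 99.3 in the calvaria libraries M4 and M8, and 636 and 881 in the tibia libraries M5 and M7. The sites lay well apart, and the fitted log2 fold change of calvaria over tibia was -2.45 ± 0.32 (SE, n = 2 per site). In rat, 265 reads in calvaria (18.6 CPM) faced 5502 reads in tibia (450 CPM), a log2 ratio of -4.59 without replicates. A 95% interval from exact binomial limits, which covers counting error only, ran from -4.78 to -4.42. In macaque, normalized CPM of ACKR3 were 20.4 in G1, 15.2 in G3 and 24.6 in T1 for calvaria, and 48.4 in G2, 38.2 in G4 and 62.4 in T2 for tibia. The log2 fold change was -1.31 ± 0.23 (SE, n = 3 per site), and its value was -1.27 among the G libraries and -1.33 between T1 and T2.

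CXCL12, the ligand of both receptors, was higher in the tibia of both rodents and overlapped between the sites in macaque. In mouse its normalized CPM were 785 in M4 and 928 in M8, against 1887 in M5 and 1685 in M7. The 2 sites did not overlap, with a log2 fold change of -1.06 ± 0.25. In rat the counts were 14352 reads in calvaria (1007 CPM) and 23549 in tibia (1925 CPM), a log2 ratio of -0.94 with a counting interval from -0.97 to -0.91. In macaque the normalized CPM were 11.5 in G1, 12.9 in G3 and 6.54 in T1 for calvaria, and 10.1 in G2, 6.85 in G4 and 5.53 in T2 for tibia. The lowest calvaria library lay below 2 of the tibia libraries, and the log2 fold change of 0.46 ± 0.35 was little larger than its error.

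CXCR4, the signalling receptor of CXCL12, did not differ between the sites of mouse beyond the spread of the calvaria libraries. Its normalized CPM were 66.7 in M4 and 170 in M8, against 84.0 in M5 and 81.0 in M7. M4 lay below and M8 above both tibia libraries, and the log2 fold change of 0.52 ± 0.36 became -0.31 without M8 and 1.02 without M4. In rat, 2961 reads in calvaria (208 CPM) and 1475 in tibia (121 CPM) gave a log2 ratio of 0.78, the opposite direction from ACKR3. In macaque CXCR4 was close to undetected, with 4, 0 and 2 reads in G1, G3 and T1 and 2, 1 and 6 reads in G2, G4 and T2. Over the summed reads the macaque log2 ratio was -0.38 with a counting interval from -2.15 to 1.27, so no difference was detectable in these counts.

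CXCL14 was far higher in the tibia of mouse and had the opposite direction in macaque. In mouse, normalized CPM were 68.3 in M4 and 64.7 in M8, the calvaria libraries, and 483 in M5 and 445 in M7, those of tibia. The libraries of each site lay close together and far from those of the other site, and the log2 fold change was -2.80 ± 0.27. It exceeded that of ACKR3 in size, except without M4, when CXCL14 stood at -2.87 and ACKR3 at -2.96. In rat, 8359 reads in calvaria (586 CPM) and 12326 in tibia (1008 CPM) gave a log2 ratio of -0.78, with a counting interval from -0.82 to -0.74. In macaque, normalized CPM were 82.2 in G1, 82.3 in G3 and 77.6 in T1 for calvaria, and 47.6 in G2, 56.5 in G4 and 70.6 in T2 for tibia. Every calvaria library stood above every tibia library on this scale, and the log2 fold change was 0.47 ± 0.19.

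The macaque difference of CXCL14 was small and leaned on the scaling and on the G libraries. On CPM without scaling factors, T1 stood at 68.5 and T2 at 70.3, so that the sites overlapped, and the log2 fold change was 0.28 ± 0.21. It was 0.67 among the G libraries and 0.14 between T1 and T2. The macaque minus mouse difference of the log2 fold changes was 3.29 for CXCL14 in a fit over both species, a value that was not tested because the gene was chosen with the contrast known.

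**Figure D1:**
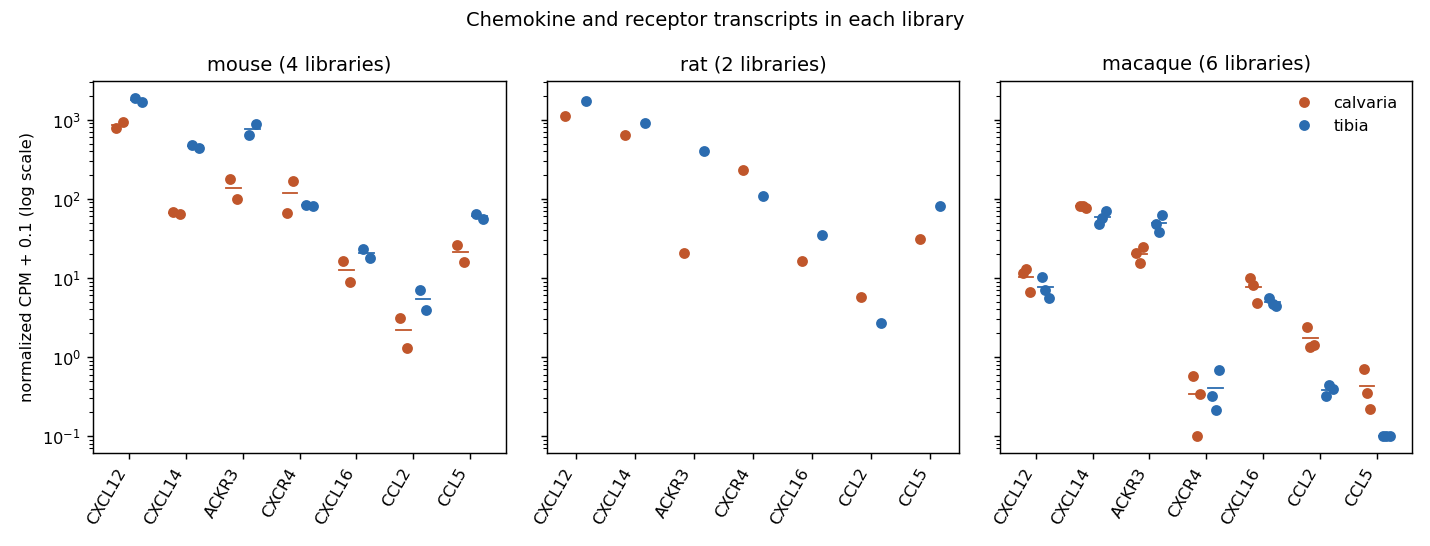
Normalized CPM plus 0.1 on a logarithmic axis for the 7 members in each library, with calvaria in orange, tibia in blue and a line at the mean of a site with replicates. ACKR3 lies higher in the tibia in all 3 species, CXCL14 does so in mouse and rat only, and CXCR4 and CCL5 lie near 0 in macaque, where the lowest points are libraries with no read.

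Of the remaining ligands, CCL5 was higher in the tibia of both rodents. In mouse its normalized CPM were 26.3 in M4 and 15.9 in M8, against 64.6 in M5 and 54.9 in M7, with a log2 fold change of -1.50 ± 0.30. In rat, 396 reads in calvaria (27.8 CPM) and 1091 in tibia (89.2 CPM) gave a log2 ratio of -1.68. In macaque CCL5 was at the limit of detection, with 5, 2 and 1 reads in G1, G3 and T1 and none in any tibia library. With the tibia set to a floor of 3 reads over its libraries, the 8 reads correspond to a level at least 3.07-fold higher in calvaria, which takes the 8 reads as they are. An exact 95% counting interval of the log2 ratio, in which the 8 reads also vary, has a lower limit of 0.97. The T cell and NK cell marker list had 2 of 5 detected members called higher in macaque calvaria, beside 10.3% of all symbols. Its sums were 84.3 to 111 normalized CPM in calvaria and 37.2 to 52.7 in tibia. In mouse none was called and the sums overlapped, at 83.9 and 150 in calvaria and 94.0 and 95.5 in tibia. In rat the sums were 158 in calvaria and 145 in tibia, with NKG7 the largest part. The rat log2 ratios were 0.51 for NKG7 and 0.14 for GZMA. They were -2.59 for CD3E, -1.80 for CD8A, -1.30 for CD2 and -1.10 for CD3D, the tibia being higher. The part of these cells in the CCL5 values was not tested.

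CCL2 was higher in the tibia in mouse and higher in the calvaria in rat and macaque. In mouse its normalized CPM were 3.01 in M4 and 1.22 in M8, and 6.95 in M5 and 3.83 in M7. The gap between the nearest libraries was narrow, and the log2 fold change was -1.34 ± 0.56. It was -2.17 without M4, -0.85 without M8 and -0.85 without M5. In rat, 73 reads in calvaria (5.12 CPM) and 35 in tibia (2.86 CPM) gave a log2 ratio of 0.82 with a counting interval from 0.24 to 1.46. In macaque there were 19, 10 and 11 reads in G1, G3 and T1, and 2, 3 and 3 reads in G2, G4 and T2. Macaque calvaria was the higher site in every library, with a log2 ratio of the summed reads of 2.52 and a counting interval from 1.41 to 3.83.

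CXCL16, the ligand of CXCR6, was higher in the tibia of both rodents and overlapped between the sites in macaque. In mouse its normalized CPM were 16.5 in M4 and 8.69 in M8, against 23.2 in M5 and 17.9 in M7, with a log2 fold change of -0.71 ± 0.35 that became -1.27 without M4 and -0.33 without M8. In rat, 212 and 472 reads gave a log2 ratio of -1.37 with a counting interval from -1.62 to -1.14. In macaque the values of 10.0 in G1, 8.03 in G3 and 4.73 in T1 overlapped those of 5.47 in G2, 4.57 in G4 and 4.37 in T2, with a log2 fold change of 0.66 ± 0.39.

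Counted over the members, 6 of 7 had non-overlapping sites in mouse, all with the tibia higher, where 18.4% of all 22339 tested symbols did so and 17.3% did so with the calvaria higher. In macaque 3 members (CXCL14, CCL2 and CCL5) were apart with the calvaria higher and ACKR3 with the tibia higher, against 12.8% and 12.1% of 18894 symbols. The methods of the study state a false discovery rate (FDR) under 0.2 and a fold change over 1.1 as thresholds. Here they were applied in edgeR's quasi-likelihood test to all symbols with a read, whereas the study first removed genes that had no read in some sample. In mouse 4 members were past these thresholds towards the tibia, namely CXCL14, ACKR3, CCL5 and CXCL12, and none towards the calvaria. Of all symbols, 1.57% and 0.712% were called in those directions. In macaque CCL2 and CXCL14 were past them towards the calvaria and ACKR3 towards the tibia, where 10.3% and 9.43% of all symbols were called. The genes that the study lists as shared by the species all exceed 1.1 on the log2 scale in mouse and macaque. With 1.1 as a log2 limit, CXCL12 in mouse (-1.06) and CXCL14 in macaque (0.47) would not pass. In rat, ACKR3 alone passed a log2 ratio of 2, towards the tibia, as 8.14% of 19234 symbols did, and no member passed it towards the calvaria, as 1.55% did. After edgeR's filter on low counts CXCL14 was the mouse member still past the thresholds, and CXCL14 and ACKR3 were those of macaque. Without 1 library, CXCL14 in macaque was no longer past them without G1, G3, G2 or G4, and CCL2 in macaque without G1 or G2. In mouse, leaving out 1 library left 1 in a site, so whether members passed is not given for those fits. The mouse log2 fold change then ranged from -1.19 to -0.97 for CXCL12 and from -1.94 to -1.19 for CCL5. Because the members were chosen with these contrasts known, nothing is read from these shares.

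**Figure D2:**
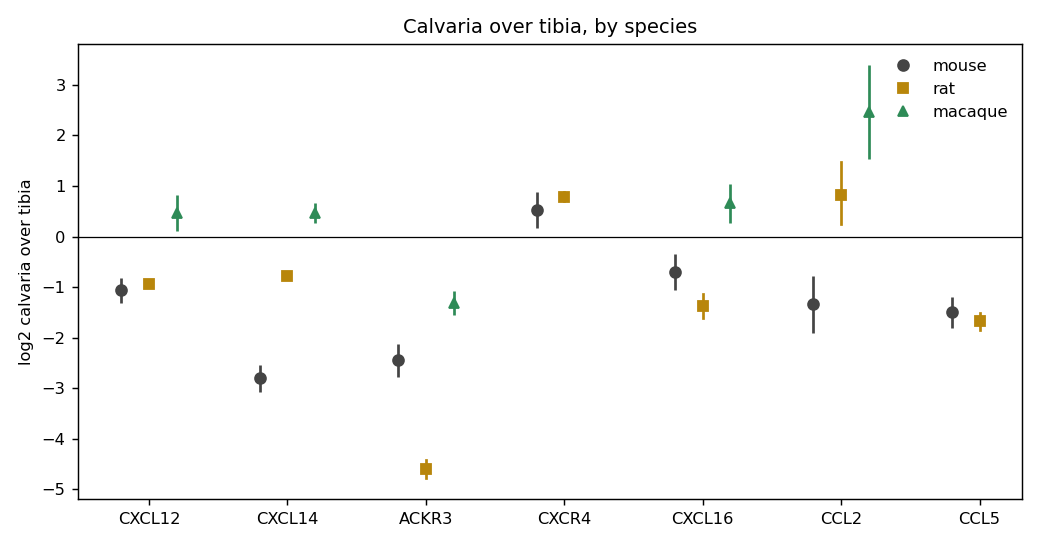
Log2 of calvaria over tibia for each member by species, where bars are the standard error of the fit in mouse (n = 2 per site) and macaque (n = 3 per site) and the 95% counting interval in rat (1 library per site). ACKR3 is the member below 0 in all 3 species, at -2.45, -4.59 and -1.31, while CXCL14 moves from -2.80 in mouse to 0.47 in macaque; macaque CXCR4, with 6 and 9 reads in all at the sites, and CCL5, with 8 and 0, are left out.

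Levels of the members were compared with each other per length, as RPKM, the normalized CPM divided by the kilobases of exon behind a row. In mouse calvaria the order began with CXCL12 at 120 ± 14.1 RPKM (SD, n = 2), followed by CXCR4 at 64.3 ± 39.7, ACKR3 at 59.8 ± 24.1, CCL5 at 39.6 ± 13.9, CXCL14 at 28.2 ± 1.07, CXCL16 at 5.00 ± 2.19 and CCL2 at 2.62 ± 1.57. CXCR4 and ACKR3, ACKR3 and CCL5, and CXCL16 and CCL2 were neighbours whose libraries overlapped. In mouse tibia ACKR3 stood at the head of the order at 327 ± 74.6 RPKM, above CXCL12 at 249 ± 19.9, CXCL14 at 197 ± 11.5, CCL5 at 112 ± 13.01 and CXCR4 at 44.8 ± 1.17, none of which overlapped its neighbour. At 379.8 RPKM in M7, ACKR3 exceeded the level of 99.4% of the tested symbols in that library.

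In rat the leading member at both sites was CXCL14, at 401 RPKM in calvaria and 564 in tibia, and CXCL12 followed at 161 and 252 RPKM. ACKR3 was last of the members in rat calvaria at 3.82 RPKM and the fourth in rat tibia at 75.8 RPKM. In macaque CXCL14 also led the order, at 48.3 ± 1.63 RPKM in calvaria and 34.9 ± 6.95 in tibia (SD, n = 3). CXCL12 at 38.2 ± 12.4 and 27.7 ± 8.62 overlapped it at both sites. ACKR3 at 25.1 ± 6.14 RPKM overlapped CXCL12 in macaque tibia, but in calvaria it stood apart below it at 10.1 ± 2.39.

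Levels were not compared across species, since the exonic length behind a row differs. CXCL12 was counted on 7161 bases in mouse and 6921 in rat but on 270 bases in macaque, which is the length of the mouse Cxcl12 coding sequence printed above. The macaque row of CCL5, at 276 bases, likewise had the length of the mouse coding sequence, and the row of CCL2 was 300 bases long in macaque against 806 in mouse. The row of CXCR4 was 1086 bases long in macaque against 1843 in mouse, where the coding sequence has 1080. The macaque order above therefore sets such rows beside longer ones, such as CXCL14 with 1670 bases and ACKR3 with 1977, and it rests on lengths that may differ in kind. A macaque row restricted to coding sequence collects fewer reads, and the 54 to 103 reads of CXCL12 per macaque library bear the error of such counts.

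Other genes of the chemokine system were taken from lists of ligands and receptors that exclude the members, and these were tested. In mouse, 50 such genes had a read, and the test called 4 for the tibia and none for the calvaria, beside 1.57% and 0.712% of all symbols. With an unadjusted p under 0.05 in the quasi-likelihood test, 4 of the 50 leaned to the calvaria and 8 to the tibia. Over all symbols, 1810 of 22339 had such a p in either direction. The exact test of edgeR and DESeq2 also called none of the 50 for the calvaria and 4 for the tibia. The median log2 fold change of the 50 was -0.50, beside 0.05 for all tested symbols, and 20 of them had non-overlapping sites with the tibia higher against 4 with the calvaria higher, beside 18.4% and 17.3% of all symbols. All 19 detected CC, CX3C and XC ligands outside the members had a negative log2 fold change, with a median of -0.68, although none was called. Some of them rest on very few reads, such as CCL28 with 0 and 0 in calvaria against 2 and 0 in tibia, and CCL1 with 1 and 0 against 2 and 0.

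The mouse genes called were ACKR2, CXCL9, CCR6 and CXCR5. ACKR2, an atypical receptor that scavenges inflammatory CC chemokines, had 9 reads in M4 and 13 in M8 against 146 in M5 and 86 in M7. Its log2 fold change was -3.17 ± 0.55 (edgeR quasi-likelihood, FDR = 0.011). CXCL9, a ligand of CXCR3 induced by interferon, had 310 and 190 reads in calvaria against 619 and 612 in tibia, with a log2 fold change of -1.16 ± 0.29 (FDR = 0.094). CCR6, the receptor of CCL20, fell by 1.64 on the log2 scale (FDR = 0.15 by edgeR), and CXCR5, which directs B cells to follicles, by 1.57 (FDR = 0.19 by edgeR). On simulated data such calls held more unchanged genes than the FDR states, and they were sensitive to the filter on low counts. After edgeR's own filter none of the 4 was called, with a lowest FDR of 0.27 among the 41 family genes tested, and with assumed pairs as a replicate block ACKR2 alone was (edgeR, FDR = 0.056). Leaving out 1 library left a mouse site with 1, and nothing is read from the number called in such fits. The log2 fold changes then ranged from -3.61 to -2.86 for ACKR2 and from -1.43 to -0.96 for CXCL9. They ranged from -2.14 to -1.29 for CCR6 and from -1.66 to -1.50 for CXCR5.

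In macaque, 32 family genes outside the members had a read, of which the test called 5 for the calvaria and 2 for the tibia, beside 10.3% and 9.43% of all symbols. Of the 32, 19 had a positive and 13 a negative log2 fold change. Their median was 1.39, beside 0.03 for all tested symbols, but 19 of the 32 had fewer than 10 reads over the 6 libraries. The median of the other 13, a limit chosen after seeing the data, was 1.18. PPBP and PF4, the CXC chemokines of platelet granules, had by far the smallest p-values. PPBP had 1283, 1253 and 1622 reads in G1, G3 and T1 against 73, 51 and 183 in G2, G4 and T2. Its log2 fold change was 4.00 ± 0.27 (edgeR, FDR = 5.2e-14). PF4 had 527, 593 and 1047 reads against 16, 28 and 74, with a log2 fold change of 4.43 ± 0.32 (edgeR, FDR = 4.9e-13).

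The other macaque genes higher in calvaria were ACKR1, CXCL8 and CCL15. ACKR1, the atypical receptor of red cells and venules, had 109, 114 and 128 reads in calvaria against 29, 37 and 68 in tibia, with a log2 fold change of 1.61 ± 0.34 (edgeR, FDR = 0.00095). CXCL8, a neutrophil attractant that mice and rats lack, had a log2 fold change of 1.91 ± 0.76 (edgeR, FDR = 0.11) on 2 to 24 reads per library. CCL15 had one of 1.18 ± 0.45 (edgeR, FDR = 0.095), and its sites overlapped. CXCL8 was not called without G1, G3, G2 or G4, and CCL15 was not called without G3. CXCL9 was higher in tibia at -1.18 ± 0.42 (edgeR, FDR = 0.069) with 139, 145 and 34 reads in tibia against 67, 29 and 30 in calvaria, so that T2 lay among the calvaria libraries, and the call was lost without G3, G2 or G4. CCL27, a chemokine of skin, stood at the threshold with -1.12 ± 0.52 (edgeR, FDR = 0.199), and its call was lost in 9 of 15 alternatives.

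Markers of blood cells were higher in macaque calvaria too. All 4 detected neutrophil markers were called there, beside 10.3% of all symbols, with a sum between 17070 and 28972 normalized CPM in calvaria and between 3330 and 6446 in tibia. All 3 detected B cell markers were called in the same direction, with sums of 45.0 to 50.5 against 11.2 to 23.8. The part of these cells in the macaque chemokine values was not tested.

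In rat, 40 family genes outside the members had a read, and 2 passed a log2 ratio of 2 towards the calvaria and 8 towards the tibia, beside 1.55% and 8.14% of all symbols. Their median was -0.71, beside -0.29 for all symbols. Towards the calvaria these were CXCL2 with 37 against 5 reads and XCR1 with 9 against 1. Towards the tibia CCL27 had 2 against 40 reads and a log2 ratio of -3.99, CXCL9 had 15 against 59, CCR9 8 against 36, CCL12 3 against 19, CCL17 5 against 21, CXCL11 3 against 16, CCL11 1 against 7 and CXCR6 0 against 4. CXCL9 was thus the higher in the tibia of all 3 species, by its own value in each. Other family genes also kept 1 direction in mouse, rat and macaque. Among them were ACKR1 (0.93, 0.78 and 1.61) and PF4 (0.85, 1.42 and 4.43) towards the calvaria and ACKR4 (-0.32, -0.84 and -0.20) towards the tibia, none of them called in mouse. The rat counts of the genes past a log2 ratio of 2 were low and unreplicated, and with 5 reads added in place of 1 only CCL27 passed the threshold.

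The list of CXCL12 partners and modifiers was tested in the same way. In mouse none of 13 was called by edgeR's quasi-likelihood test, by the exact test or by DESeq2. An unadjusted p under 0.05 was reached by 1 of them in the quasi-likelihood test, beside 1810 of all 22339 symbols. In rat none of 12 passed a log2 ratio of 2. In macaque 3 of 11 were called higher in calvaria and none higher in tibia, beside 10.3% and 9.43% of all symbols. ARRB2, a beta-arrestin that binds both CXCL12 receptors, had a log2 fold change of 1.14 ± 0.19 (edgeR, FDR = 3.8e-05), and GRK2, a kinase that phosphorylates activated receptors, had 0.83 ± 0.20 (edgeR, FDR = 0.0039). SDC4, a proteoglycan that binds CXCL12, had 2.20 ± 1.00 (edgeR, FDR = 0.18) on 1 to 16 reads per library, and its call was lost in 8 of 15 alternatives, among them the replicate block, library size alone and the fits without G1, G3, T1, G2 or T2, with an FDR of up to 0.60 in edgeR.

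The difference between the site effects in mouse and macaque was tested for 24 family genes with reads in both species. PPBP and PF4 differed, where 4.9% of 11570 symbols did at an FDR under 0.2. The macaque minus mouse difference was 3.84 ± 0.54 for PPBP (edgeR interaction, FDR = 0.013) and 3.60 ± 0.60 for PF4 (edgeR interaction, FDR = 0.025). In mouse alone both log2 fold changes were also positive, at 0.19 ± 0.29 for PPBP and 0.85 ± 0.27 for PF4, and neither was called. CXCL9 had a difference of -0.01 ± 0.69 (edgeR interaction, FDR = 1.0), and ACKR1 one of 0.69 ± 0.57 (edgeR interaction, FDR = 0.62).

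**Figure D3:**
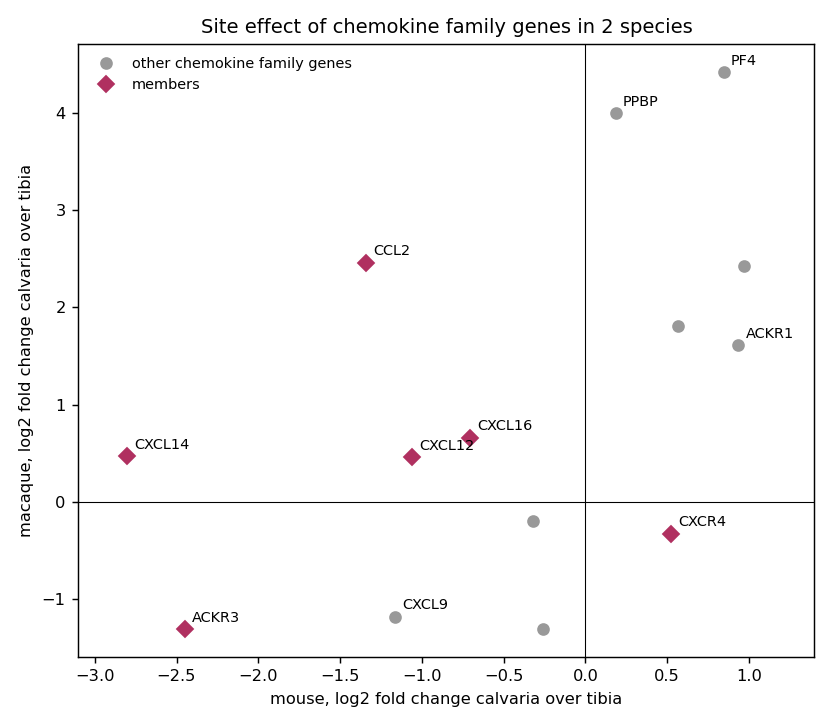
Log2 fold change of calvaria over tibia in mouse (horizontal) and macaque (vertical) for the 6 members (diamonds) and 8 other chemokine family genes (circles) with at least 10 reads in each species. ACKR3 and CXCL9 lie in the lower left part with the tibia higher in both species, PPBP and PF4 lie at the top at 4.00 and 4.43 in macaque, and CXCL14, CXCL12, CXCL16 and CCL2 lie in the upper left part with opposite directions.

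To place the 3 genes of main interest among the rest of the transcriptome, the symbols whose pattern over the 12 libraries was most like theirs were listed, after the mean of each species was taken out. The likeness is a Pearson correlation over the 12 libraries, and it follows the site contrast that chose the members. It was taken with each of 4086 symbols that had a mean of at least 10 normalized CPM in each species. CXCL12 itself lay under that minimum, with a lowest species mean of 8.89. For ACKR3 the 5 closest were PRR15 (r = 0.98), DLX3, a homeobox factor of bone and skin appendages (r = 0.98), TNFRSF11B, the decoy receptor of RANKL (r = 0.97), JAM2, a junction adhesion molecule (r = 0.97), and BAMBI, a pseudoreceptor of the TGF-beta family (r = 0.96). All 5 were lower in calvaria in each species. TNFRSF11B, for instance, had log2 values of -2.49 in mouse, -3.27 in rat and -0.77 in macaque.

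For CXCL14 the closest were CAST, the inhibitor of calpain (r = 0.96), CFD, the adipocyte protease adipsin (r = 0.92), ID4 (r = 0.87), CHST1 (r = 0.84) and PPP2CB (r = 0.83). CFD had log2 values of -5.43 in mouse, 0.20 in rat and 1.22 in macaque. In rat it had the opposite sign from CXCL14, at -0.78, and in mouse and macaque the same sign as CXCL14. For CXCL12 the closest were PECAM1, an adhesion molecule that also stands in the endothelial marker list (r = 0.89), NCSTN (r = 0.86), CIRBP (r = 0.84), MYH11, the smooth muscle myosin (r = 0.84), and SCFD1 (r = 0.83). CXCL12 itself correlated with CXCL14 at r = 0.73 and with ACKR3 at r = 0.41. These are descriptions over libraries that share species and site.

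**Figure D4:**
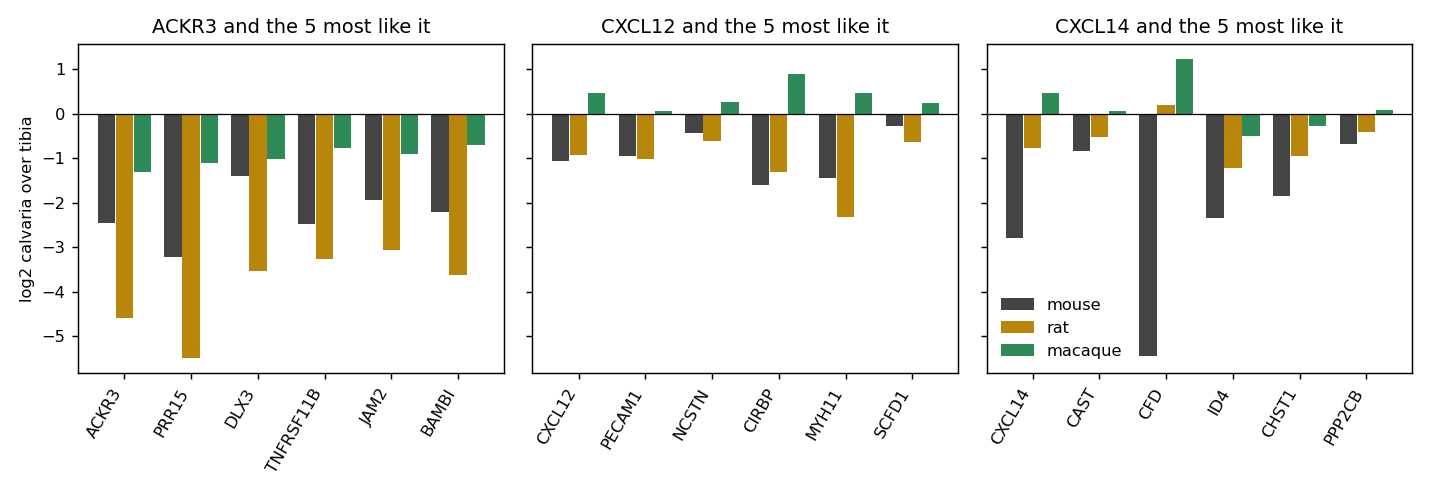
Log2 of calvaria over tibia in mouse, rat and macaque for ACKR3, CXCL12 and CXCL14, each followed by the 5 symbols with the most similar pattern over the 12 libraries, as bars from 0. The genes beside ACKR3 are below 0 in all 3 species, and CFD beside CXCL14 runs from -5.43 in mouse to 1.22 in macaque.

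Several marker lists moved with these members. Of all symbols, 1.57% were called higher in tibia in mouse and 9.43% in macaque, and 10.3% were called higher in macaque calvaria. In rat, 8.14% passed a log2 ratio of 2 towards the tibia. Osteocyte markers were higher in the tibia alongside ACKR3. In mouse SOST, DMP1, MEPE and PHEX were called (4 of 6), in macaque SOST and MEPE (2 of 6), and in rat 4 of 5 passed a log2 ratio of 2. In macaque DMP1 had a log2 fold change of -0.21 ± 0.19 and PHEX one of 0.21 ± 0.24. Adipocyte markers had the direction of CXCL14 in mouse and macaque. In mouse 4 of 5 were called higher in tibia, with sums of 196 to 505 normalized CPM in calvaria and 941 to 1085 in tibia, whereas in macaque 3 of 4 were called higher in calvaria, with sums of 1679 to 2548 against 681 to 1435. Most of each sum was FABP4, with means in calvaria and tibia of 340 and 947 in mouse and 2037 and 943 in macaque. ADIPOQ stood at 10.8 and 59.0 in mouse and at 3.51 and 1.18 in macaque. In macaque CIDEC had no read, and PLIN1 had 2 in all.

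The marrow reticular markers, which include the CXCL12-rich stromal cells, were called higher in tibia for 2 of 5 in mouse (LEPR and FOXC1) and for 3 of 6 in macaque (LEPR, KITLG and FOXC1), where VCAM1 was called higher in calvaria. Of all symbols, 1.57% were called higher in tibia in mouse and 9.43% in macaque, and 10.3% were called higher in macaque calvaria. Their sums lay between 409 and 549 normalized CPM in mouse calvaria against 561 and 608 in tibia, and between 502 and 719 in macaque calvaria against 662 and 892 in tibia. Endothelial markers had 2 of 6 called higher in tibia in mouse and 1 of 6 in macaque. The part of any of these cell types in the values of ACKR3, CXCL14 and CXCL12 was not tested. Skeletal muscle markers summed to 6.98 normalized CPM in rat calvaria and to 536 in rat tibia, and in mouse they overlapped between the sites.

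**Figure D5:**
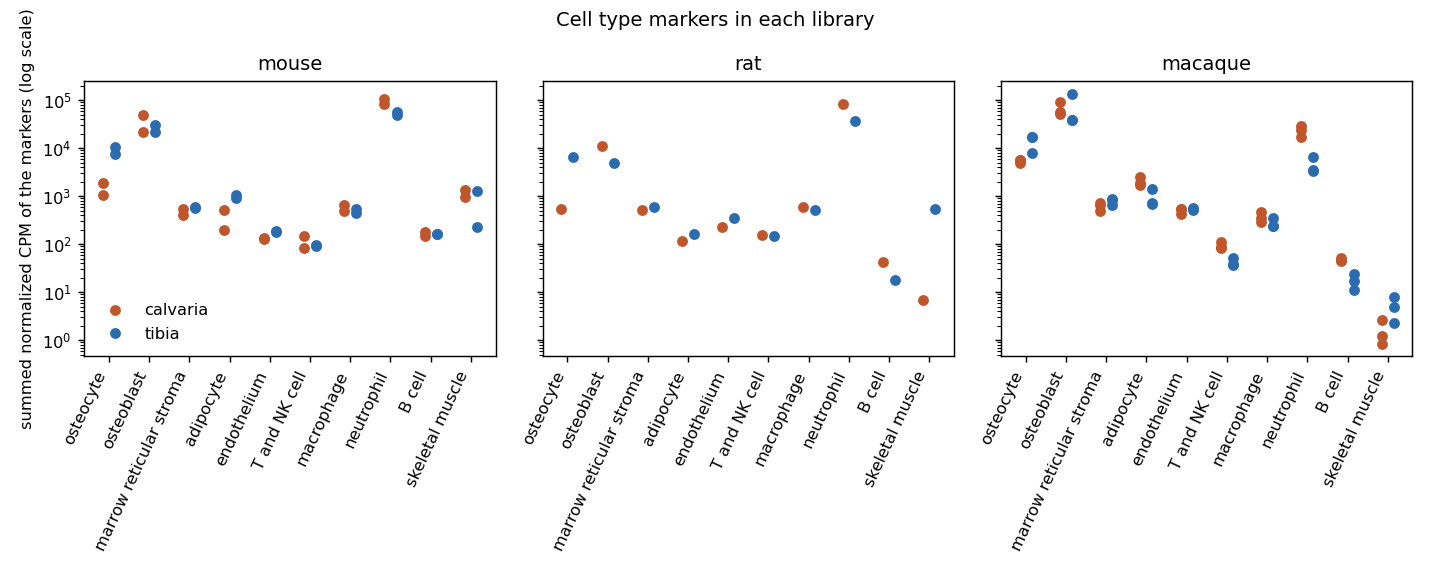
Summed normalized CPM of 10 lists of cell type markers on a logarithmic axis, in each library of the 3 species, with calvaria in orange and tibia in blue. Osteocyte markers lie higher in the tibia in all 3 species, neutrophil markers lie higher in the calvaria in all 3, and adipocyte markers lie higher in the tibia in mouse and in the calvaria in macaque.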

How the data were processed

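RNA-seq counts of 12 libraries from 3 species were used. As deposited, each table holds raw counts of reads per gene, which the authors made by mapping with HISAT2 (per the methods of the study; the submitters' processing notes list BWA 0.7.10-r789) and counting with HTSeq-count on merged exons without regard to strand, with the builds mm10, rn6 and, for macaque, MacaM. The values that the authors normalized beside the counts were not used. Columns without a sample numbered 0.

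Rows that name no gene, between 0.00261% and 0.0663% of a library's reads, were left out, and counts of rows sharing a symbol were added up. In macaque 5939 of 17111 rows with only a gene number received a symbol from a RefSeq table of the newer telomere-to-telomere assembly MMU8v2.0. Mouse coordinates and sequences are from GENCODE vM21 (GRCm38, the same build as mm10). Protein sequences were not used here.

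A model per species (mouse, macaque) was fitted to all symbols with a read in edgeR 4.0.16 (R 4.3.3) with TMM factors, the quasi-likelihood test and Benjamini-Hochberg adjusted p-values. Standard errors were obtained as the absolute log2 fold change over the root of the F statistic. Normalized CPM and RPKM use TMM-scaled library sizes, and RPKM also the exonic length in the table. Rat ratios use CPM with 1 read added and no TMM factor. Where a site had no read, 3 reads over its libraries set a bound. The species by site interaction used 10 libraries, those of mouse and macaque. Correlations used log2(normalized CPM + 1). Alternatives were DESeq2 1.42.0, edgeR's exact test, other scalings, filters and thresholds, a replicate block, and fits without each library, with a minimum of 10 reads for family genes added after the data were seen. Other tools were Python 3.11.15, pandas 2.3.3, numpy 2.4.6, scipy 1.17.1 and matplotlib 3.10.9.

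The members, lists and tests were chosen with earlier results of these data known. Named genes are the members, the called genes of the family lists (at most 8 a species) and of the CXCL12 axis (at most 5), and the 5 symbols most like CXCL12, CXCL14 and ACKR3. Per the methods, skull and tibia came as pairs from the same pools or animals, but the labels name no pairs. The reported p-values come from fits without pairs and do not use this. Assuming G1 with G2, G3 with G4 and T1 with T2, deviations from site means correlated over 7535 macaque genes with r = 0.32, 0.36 and 0.52, against -0.46 to 0.13 for other combinations. In mouse the assumed pairs M4 with M5 and M8 with M7 had r = 0.044 over 9480 genes. On simulated data the share of unchanged genes among the calls exceeded the nominal FDR in mouse, macaque and the interaction.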

Additional observations from a re-analysis of the deposited data

Results flagged for a closer look

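CXCL14, CCL2 and CCL5 had site effects of opposite direction in mouse and macaque. In mouse every tibia library lay above every calvaria library for each of these genes, and in macaque every calvaria library lay above every tibia library. The macaque minus mouse difference of the log2 fold changes of calvaria over tibia was 3.29 for CXCL14, 3.84 for CCL2 and 6.57 for CCL5. The difference was not tested for these genes, since they were chosen with the contrasts known, and the value of CCL5 depends on a macaque tibia without reads. For CXCL14, macaque sites overlapped when library size alone was used.

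PPBP and PF4 had site effects that differed between the species by the interaction test of edgeR over 10 libraries. The macaque minus mouse difference was 3.84 for PPBP (FDR = 0.013, edgeR) and 3.60 for PF4 (FDR = 0.025, edgeR), with all 3 macaque calvaria libraries above all 3 tibia libraries for both genes. The difference was one of size and not of direction. In mouse the log2 fold changes were 0.19 ± 0.29 for PPBP, whose sites overlapped, and 0.85 ± 0.27 for PF4, whose sites did not, and neither was called. The rat log2 ratios were 1.52 for PPBP and 1.42 for PF4. Species and sequencing lane cannot be told apart.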

How the results depend on the processing

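The log2 fold changes of CXCL12, CXCL14 and ACKR3 kept their direction in mouse and macaque under every alternative run, and those of the rat did under each scaling and added read count. Without 1 library, CXCL12 ranged from -1.19 to -0.97 in mouse and 0.27 to 0.74 in macaque, CXCL14 from -2.87 to -2.74 and 0.35 to 0.64, and ACKR3 from -2.96 to -2.09 and -1.48 to -1.10. CXCL14 stood at -2.88 in mouse with library size alone, and in macaque at 0.67 in the G libraries and 0.14 between T1 and T2. With TMM factors the rat ratios were -0.65 for CXCL12, -0.49 for CXCL14 and -4.30 for ACKR3.

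The mouse family genes called higher in tibia, 4 in all, became 0 after edgeR's filter, with a read in every library or with symbols read in all 3 species, and 1 at an FDR under 0.05. With the replicate block of assumed pairs, which in mouse rest on a correlation of 0.044, the number was 1, and the block also lost SDC4 in macaque. Without 1 library, 0 to 7 were called higher in mouse calvaria and 0 to 23 in tibia, and for the CXCL12 axis 0 to 4 and 0 to 3. Each of these mouse fits left 1 library in a site, and the number called over all symbols moved as well. It rose without M4 or M8 and fell without M5 or M7, so nothing specific to chemokine genes is read from these ranges. In macaque the 5 family genes called for calvaria ranged from 3 to 7 without 1 library and were 3 at an FDR under 0.05. The 2 called for tibia ranged from 0 to 2, were 1 with RLE factors, with either read filter, with symbols shared by all species, with the exact test or with DESeq2, were 0 at an FDR under 0.05, and were 3 with library size alone, the replicate block or the letter as batch. In rat, 2 genes towards calvaria and 8 towards tibia became 0 and 1 with 5 reads added, 4 and 4 with TMM factors, and 10 and 15 at a log2 ratio of 1, and a minimum of 10 reads, chosen after seeing the data, left 2 and 6. Over all symbols the mouse calls fell too, from 510 of 22339 to 29 of 15402 after edgeR's filter. They were 14 of 16740 with a read in every library and 31 of 10541 with symbols read in all 3 species. The cause of these shifts was not tested. The macaque values of CXCR4, CCL5 and CCL2 and those of the rat family genes named rest on few reads.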
